A study of Homo sapiens with 6 samples.

Results

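The 44 genes described here encode cytokines, chemokines, ligands and receptors of the tumour necrosis factor (TNF) family, and the NF-κB transcription factors with their inhibitors and targets. They were chosen by symbol, with earlier results of these data known. Each symbol was matched to 1 of the 63677 Ensembl identifiers in the count tables. PolyA RNA was sequenced from SW480, an established human colorectal cancer cell line, after stable transduction with a doxycycline-inducible vector for POU5F1B or, as a control, for GFP, the green fluorescent protein. POU5F1B, here with an HA tag, arose by retroposition from POU5F1, the gene of the pluripotency factor OCT4. The 3 GFP and the 3 POU5F1B libraries shared the parental line, the kind of vector and doxycycline at 1 µg/mL over 72 h. The labels do not say whether a group came from a pool of transduced cells or from a single clone, nor whether replicates were separate cultures, so the p-values measure only the spread between these samples.

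In unstimulated cells NF-κB dimers of the canonical pathway, made of subunits such as RELA with NFKB1, are held in the cytoplasm by inhibitors of the IκB family. Signals from TNF or interleukin 1 receptors lead to the loss of these inhibitors, and the dimers then bind kappa B sites and switch on cytokines, chemokines and survival genes. Among their targets are their own brakes, NFKBIA and TNFAIP3, and the subunit genes NFKB1, NFKB2 and RELB, so the transcripts of these genes are often read as a measure of the pathway. Colorectal cancer cells are known to use chemokines and cytokines of the interleukin 6 family to signal to themselves and to the cells around them.

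Before the values of these genes are given, the libraries have to be described. The depth lay between 10767947 and 12787637 counts, and 3 counts, the limit that a count of 0 allows, corresponded to 0.228 to 0.277 CPM (the count set against a library size scaled by TMM). Such limits cover counting error only. POU5F1B itself had 6, 5 and 1 counts in GFP replicates 1, 2 and 3 and 15027, 11393 and 1458 in POU5F1B replicates 1, 2 and 3, so the third POU5F1B library held far less of it, at 121 CPM, than the other two, at 1179 and 1054 CPM. GFP replicate 3 also stood apart, with a quality weight of 0.111 in limma against 0.575 to 2.79 for the other libraries. The fold changes of genes described in full are therefore also given for replicates 1 and 2 alone. Of the 10 markers of the labelled tissue, the keratins KRT8 and KRT18 were abundant, CDX1 and LGALS4 had at most 9 counts in any library, and KRT20 had 9 to 19. The 10 summed to 6353 to 9559 CPM in GFP and 7892 to 8911 CPM in POU5F1B libraries. CDH1, the epithelial adhesion gene E-cadherin, had 33.6, 30.1 and 72.6 CPM in GFP and 164, 158 and 98.1 CPM in POU5F1B libraries, without overlap. The groups overlapped for the other tested markers among these 10. EPCAM had 86.6, 89.2 and 518 against 320, 330 and 252 CPM, and VIL1 23.0, 14.0 and 210 against 42.6, 37.5 and 111 CPM. Log2 fold changes were -0.32 for CDX2 and -0.31 for KRT20, and 0.10, 0.17 and 0.34 for KRT8, KRT18 and KRT19. The 7 leukocyte markers summed to 0.836 to 1.93 CPM in GFP and 1.02 to 1.65 CPM in POU5F1B libraries, and 0 of them had enough reads to be tested. CD68 was at 0 and PTPRC at no more than 2 counts, while CD14 had up to 16 (GFP replicate 1) and ITGAM up to 11 (POU5F1B replicate 1). The 7 fibroblast markers summed to 28.0 to 171 CPM in GFP and 13.4 to 22.7 CPM in POU5F1B libraries, mostly through COL1A1 and PDGFRB, with COL3A1 at 0. Levels of COL1A1 were 141, 118 and 16.8 CPM in GFP and 6.75, 5.55 and 9.47 CPM in POU5F1B libraries, lower without overlap. The part of these marker differences and of the POU5F1B level in the results below was not tested.

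Most of the 44 genes that could be measured had higher levels with POU5F1B, but none passed the test. Of the 30 genes with enough reads to be tested, 26 were higher and 4 lower in POU5F1B cells, with a median log2 fold change of 0.60, where 46.9% of all 14286 tested genes were higher and their median was -0.02. With limma voom, 0 of the 30 genes had an adjusted p under 0.05 and a fold change above 2, as did 0% of all tested genes, and the adjusted p-values lay between 0.236 and 0.960. POU5F1B itself did not pass in this fit either (log2 fold change 10.7 ± 2.78 SE, adjusted p = 0.252 by limma voom). A gene that did not pass may therefore still differ between the groups. The quasi-likelihood test of edgeR also passed 0 of the 30, and DESeq2 passed 2 (IL32 and CXCL16). With limma voom 12 of the 30 genes had an unadjusted p under 0.05, and all 12 were higher. This can be set against 6.07% of all tested genes higher and 5.82% lower at that p. Because the genes were chosen with earlier results of these data known, the shares in this paragraph describe the list and do not test it. By limma voom the 12 were the cytokines LIF, IL32 and CSF2, the receptor subunit IL6R, the chemokine CXCL16, the TNF family genes TNFSF15 and TNFRSF10B, and NFKB1, NFKB2, NFKBIA, NFKBIE and TNFAIP3 of the NF-κB system. With edgeR 12 genes also had an unadjusted p under 0.05, of which 11 were shared, with TNFRSF18 in place of TNFAIP3. The 3 GFP and 3 POU5F1B libraries did not overlap for 11 of the 30 genes, all of them higher with POU5F1B, where 10.2% of all tested genes were higher and 9.24% lower without overlap. In bulk RNA, more cells that express a gene and more RNA per cell cannot be told apart, and the same holds for fewer cells and less RNA.

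**Figure D1:**
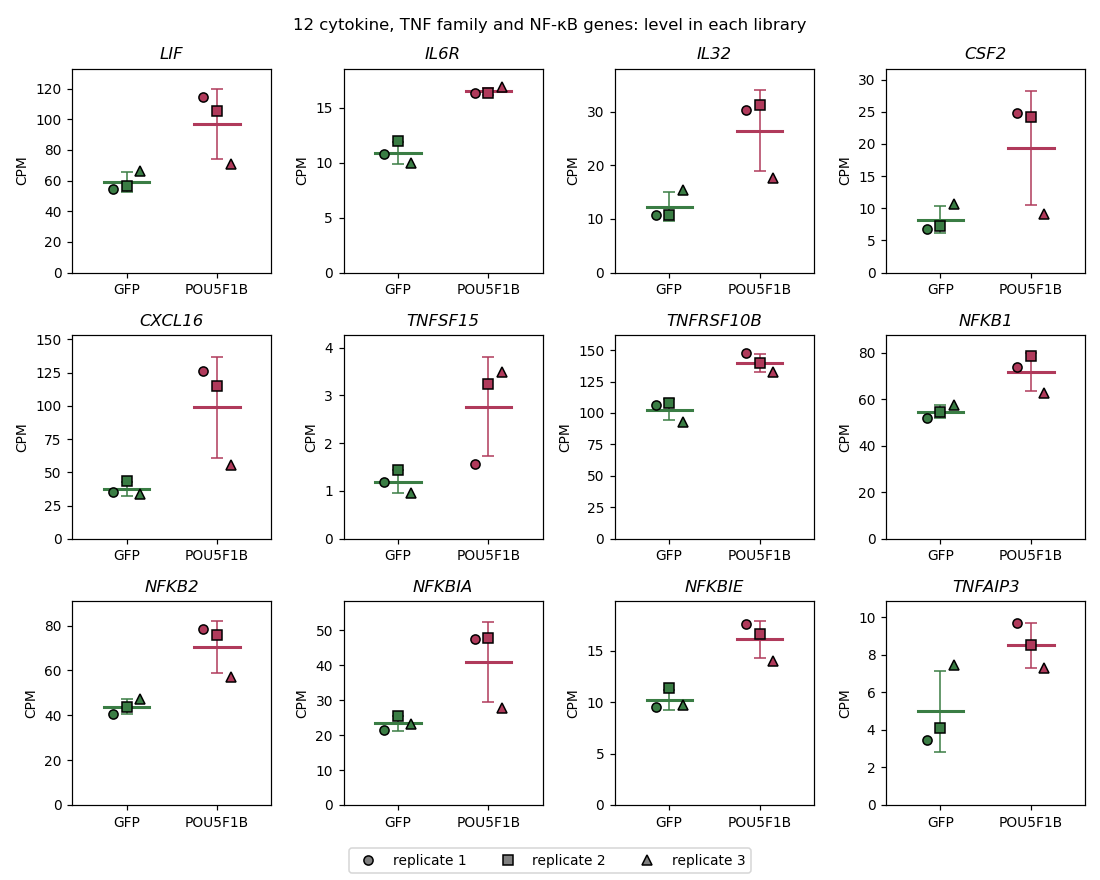
Level in CPM (vertical axes, each from 0) of the 12 genes with an unadjusted p under 0.05, in 3 GFP (green) and 3 POU5F1B (red) libraries; marker shape gives the replicate number, horizontal lines are group means and bars the SD. For 8 of the 12 genes POU5F1B replicate 3 (triangle) lies above every GFP library and below POU5F1B replicates 1 and 2.

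The third replicate differed from the others in these genes too. POU5F1B replicate 3 lay above every GFP library and below POU5F1B replicates 1 and 2 for 8 of the 30 genes, all of them among the 12, a position found in 5.55% of all tested genes. Such a position needs groups that do not overlap, which 11 of the 30 genes had (10.2% of all tested genes were higher without overlap). The counts of 8, 11 and 12 are therefore not separate results. Within replicates 1 and 2 alone the median log2 fold change of the 30 genes was 0.67, and within the third replicates it was 0.27. In replicates 1 and 2 alone, limma voom gave an adjusted p under 0.05 for 18 genes higher and 2 lower (all tested genes, 14.1% higher and 15.5% lower). The 2 lower genes were CXCR4 and TNFRSF21. Of the 30, 9 genes were higher by more than 2-fold and 0 were lower by as much, where 3.21% and 5.15% of all tested genes were. The 9 genes were TNFRSF18, BIRC3, NFKBIA, IL32, CXCL16, CCL2, CSF2, TNF and TNFAIP3, with adjusted p-values in that fit from 1.29e-06 to 0.0207; over all alternatives their adjusted p-values ran from 1.29e-06 to 0.985. The replicate 3 libraries allow no test, as there is 1 per group. In them 22 of the 30 genes were higher with POU5F1B by any amount, as were 50.5% of all tested genes, with 3 higher by more than 2-fold (background 5.78%) and 3 lower by more than 2-fold (background 10.5%).

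**Figure D2:**
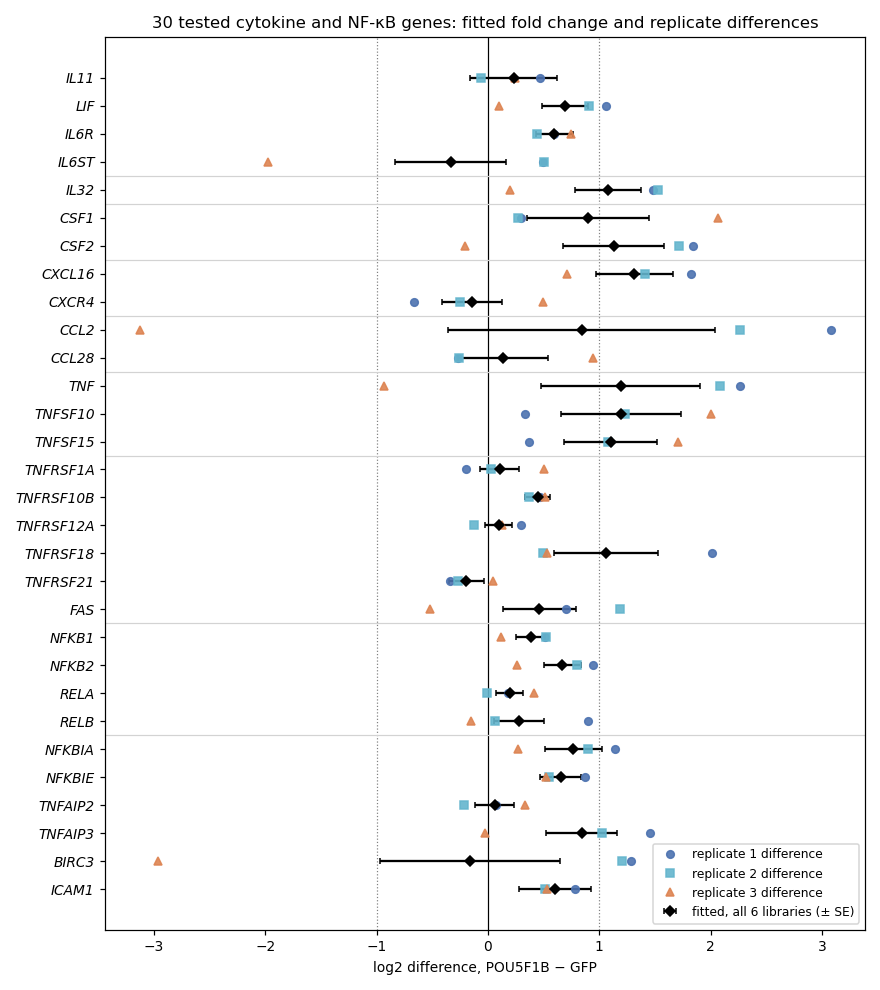
Log2 difference between POU5F1B and GFP (horizontal axis; dotted lines at 2-fold) for the 30 tested genes, grouped by role. Black diamonds with bars are the fit over 6 libraries ± SE, and coloured points the difference between libraries of the same replicate number, which are not taken as pairs. The replicate 3 difference lies far to the left for CCL2 (-3.13), BIRC3 (-2.96) and IL6ST (-1.97).

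Of the 4 interleukin 1 family genes, whose products are alarm cytokines of inflamed epithelium and macrophages, none could be tested. IL33 (ENSG00000137033, chromosome 9, 6215786 to 6257983 on GRCh37), an alarmin stored in the nucleus and named in the study's text as a secreted factor, had 0 counts in all 6 libraries and was not detectable at this depth. The study states that the genes it names there did not stand out in every setting, and its IL33 protein result came from another colorectal cancer line. IL1A had 1 count, in POU5F1B replicate 1. IL1B, whose product is cleaved by the inflammasome, had 0, 0 and 13 counts in GFP and 1, 1 and 5 in POU5F1B libraries. IL18, another inflammasome substrate, had 0, 0 and 12 counts in GFP and 2, 1 and 8 in POU5F1B libraries, so both genes had most of their reads in the replicate 3 libraries.

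Among the 5 genes of the interleukin 6 family and its receptors, LIF and IL6R had groups that did not overlap (10.2% of all tested genes were higher without overlap). LIF (ENSG00000128342, chromosome 22, 30636442 to 30642748) encodes a cytokine that keeps mouse stem cells undifferentiated and signals through the LIF receptor and IL6ST. It had 54.7, 56.2 and 66.3 CPM in GFP replicates 1, 2 and 3 and 114, 106 and 71.1 CPM in POU5F1B replicates 1, 2 and 3. Each POU5F1B library thus lay above each GFP library, but POU5F1B replicate 3 was near the highest of them. LIF was 1.62-fold higher with POU5F1B (log2 fold change 0.69 ± 0.21 SE; adjusted p = 0.302, limma voom) and higher by 0.97 on the log2 scale in replicates 1 and 2 only, while 4.37% of its exon bases are shared with LIF-AS1 and LIF-AS2 on the opposite strand. The strand setting of the counting is not stated, so reads of such partners cannot be told apart.

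IL6R (ENSG00000160712, chromosome 1, 154377669 to 154441926) encodes the chain that binds interleukin 6. It had 10.8, 12.01 and 9.98 CPM in GFP and 16.3, 16.4 and 16.9 CPM in POU5F1B libraries. The POU5F1B libraries, the third included, had an SD of 0.300 CPM (n = 3), and the groups did not overlap. With limma voom its log2 fold change was 0.60 ± 0.17 (SE; adjusted p = 0.279), and it was 0.51 with replicates 1 and 2 only. IL6ST, named after its values were seen, encodes gp130, the signalling chain shared by the family. It had 39.2, 59.6 and 95.9 CPM in GFP and 55.2, 84.7 and 24.3 CPM in POU5F1B libraries, with the highest and the lowest value both in replicate 3. Its log2 fold change of -0.33 ± 0.50 (SE; adjusted p = 0.825, limma voom) was 0.46 with replicates 1 and 2 only. A gene on the opposite strand, ENSG00000262211, shares 6.61% of the exon bases of IL6ST. Ligands other than LIF were low. IL11 had 11 to 23 counts in GFP and 14 to 29 in POU5F1B libraries (log2 fold change 0.23 ± 0.39 SE), and IL6 had at most 2 counts in any library.

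IL32 (ENSG00000008517, chromosome 16, 3115298 to 3132193) encodes a cytokine that mice lack and that can induce TNF and other cytokines. Its level was 10.8, 10.7 and 15.4 CPM in GFP and 30.3, 31.3 and 17.7 CPM in POU5F1B libraries. The groups did not overlap, although both replicate 3 libraries lay between the other GFP and the other POU5F1B libraries. IL32 was 2.11-fold higher with POU5F1B over the 6 libraries (log2 fold change 1.08 ± 0.29 SE; adjusted p = 0.271, limma voom) and higher by 1.502 on the log2 scale with replicates 1 and 2 only. RNU1-125P on the same strand shares 4.02% of its exon bases.

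The colony stimulating factors behaved differently from each other in the third replicate. CSF2 (ENSG00000164400, chromosome 5, 131409482 to 131411863), the granulocyte and macrophage growth factor GM-CSF, had 6.81, 7.22 and 10.6 CPM in GFP and 24.9, 24.1 and 9.14 CPM in POU5F1B libraries. POU5F1B replicates 1 and 2 were far above every other library, and POU5F1B replicate 3 was below GFP replicate 3. Its log2 fold change was 1.13 ± 0.45 (SE; adjusted p = 0.400, limma voom), and 1.79 with replicates 1 and 2 only. CSF1 (ENSG00000184371, chromosome 1, 110452864 to 110473614), the macrophage growth factor M-CSF, had 4.88, 4.79 and 5.04 CPM in GFP and 6.04, 5.83 and 21.7 CPM in POU5F1B libraries. Here the groups did not overlap, and most of the difference lay in POU5F1B replicate 3. CSF1 had a log2 fold change of 0.90 ± 0.55 (SE; adjusted p = 0.559, limma voom), which was 0.28 with replicates 1 and 2 only.

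Of the 8 CXC chemokines, CXCL16 was the single one with enough reads to be tested. CXCL16 (ENSG00000161921, chromosome 17, 4636828 to 4643223) is made as a transmembrane protein on the cell surface and is shed by ADAM proteases to attract CXCR6-bearing lymphocytes. It had 35.3, 43.1 and 33.8 CPM in GFP and 126, 115 and 55.2 CPM in POU5F1B libraries. All POU5F1B libraries were above all GFP libraries, with replicate 3 in between. This was the highest fold change of the 30 genes, 2.49-fold (log2 fold change 1.31 ± 0.35 SE; adjusted p = 0.257, limma voom), with 1.61 on the log2 scale in replicates 1 and 2 only. Exon bases shared with MED11 and ZMYND15 on the opposite strand made up 6.16% of its exons. CXCR4, the receptor of CXCL12, was among the 4 genes that were lower (log2 fold change -0.14 ± 0.27 SE), with 57.0 to 120 CPM in GFP and 75.8 to 85.6 CPM in POU5F1B libraries, and it turned to 0.07 without GFP replicate 1. Its ligand CXCL12 and the interferon-induced CXCL10 had 0 counts in all 6 libraries.

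The neutrophil-attracting chemokines, which NF-κB is known to induce strongly in inflamed epithelium, were nearly silent. CXCL8, or interleukin 8, had 2, 0 and 45 counts in GFP and 2, 4 and 9 in POU5F1B libraries. CXCL1 had 2, 5 and 21 against 1, 0 and 4 counts, and CXCL3 had 6, 3 and 17 against 0, 0 and 10. CXCL2 and CXCL5 had at most 4 counts in any library. CXCL1, CXCL2 and CXCL3 are close paralogs, so the split of reads among them is uncertain. The 5 genes together had 12, 12 and 85 counts in GFP and 5, 6 and 25 in POU5F1B libraries, so the replicate 3 library held most of the reads in each group. These totals were not tested.

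**Figure D3:**
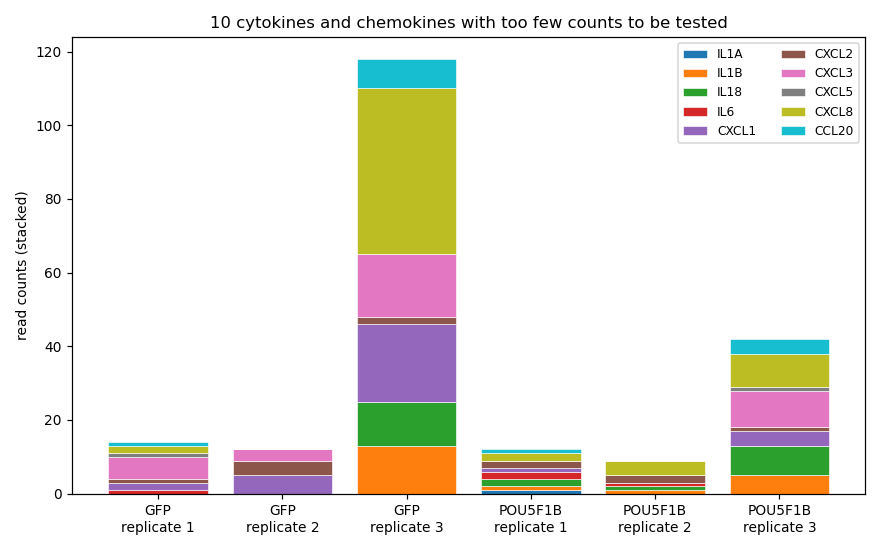
Read counts (vertical axis, stacked by gene) in each of the 6 libraries for the 10 genes that had reads but too few to be tested. Replicates 1 and 2 of both groups held 9 to 14 counts in all, GFP replicate 3 held 118 and POU5F1B replicate 3 held 42.

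Among the 4 CC chemokines, 2 could be tested, CCL2 and CCL28. CCL2 (ENSG00000108691, chromosome 17, 32582293 to 32584227), which attracts monocytes, had 4, 15 and 90 counts in GFP and 52, 66 and 9 in POU5F1B libraries. POU5F1B was the higher group in replicates 1 and 2 and the lower in replicate 3, and CCL2 was the single tested gene that did not reach the filter level of 0.825 CPM in every library. The log2 fold change of 0.84 ± 1.20 (SE; adjusted p = 0.816, limma voom) became 2.86 in replicates 1 and 2 alone, and -0.13 when GFP replicate 1 was left out. CCL28, a mucosal chemokine of colon epithelium, had 16 to 47 counts in GFP and 32 to 37 in POU5F1B libraries. CCL20, which attracts CCR6-bearing cells to mucosa, had 1, 0 and 8 against 1, 0 and 4 counts. CCL5 was listed at 0 in all libraries, but the tables use older identifiers than the symbol table, and reads under an earlier identifier of CCL5 would not be seen here.

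All 3 TNF ligands had higher mean levels with POU5F1B, with wide spreads. Of all tested genes 46.9% were higher, and 3 genes are too few to say anything of the ligands as a group. TNF (ENSG00000232810, chromosome 6, 31543342 to 31546113), the family's founding inflammatory cytokine, had 14, 17 and 31 counts in GFP and 80, 65 and 16 in POU5F1B libraries, or 1.18, 1.29 and 2.69 against 6.28, 6.01 and 1.33 CPM. As for CSF2, the third POU5F1B library was below the third GFP library. TNF had a log2 fold change of 1.19 ± 0.71 (SE; adjusted p = 0.556, limma voom), and of 2.27 with replicates 1 and 2 only.

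TNFSF10 (ENSG00000121858, chromosome 3, 172223298 to 172241265) encodes TRAIL, which kills cells through death receptors such as TNFRSF10B. It had 17.0, 8.36 and 3.21 CPM in GFP and 21.4, 19.9 and 13.4 CPM in POU5F1B libraries, so the groups overlapped through GFP replicate 1. A log2 fold change of 1.20 ± 0.54 (SE; adjusted p = 0.437, limma voom) came down to 0.80 with replicates 1 and 2 only. TNFSF15 (ENSG00000181634, chromosome 9, 117546932 to 117568319) encodes TL1A, a cytokine tied to inflammatory bowel disease. It had 14, 19 and 11 counts in GFP and 20, 35 and 42 in POU5F1B libraries, or 1.18, 1.44 and 0.955 against 1.57, 3.24 and 3.49 CPM. The groups did not overlap, and unlike TNF its highest value was in POU5F1B replicate 3. The fold change was 1.10 ± 0.42 on the log2 scale (SE; adjusted p = 0.372, limma voom), and 0.73 with replicates 1 and 2 only.

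Of the 6 TNF receptors, 5 were higher with POU5F1B (46.9% of all tested genes were) and 1 had an unadjusted p under 0.05 (6.07% of all were higher at that p), a number too small to say anything of the receptors as a group. That gene was TNFRSF10B (ENSG00000120889, chromosome 8, 22877646 to 22926544), the death receptor DR5 for TRAIL. It had 107, 108 and 93.0 CPM in GFP and 147, 139 and 132 CPM in POU5F1B libraries. The groups did not overlap, and the difference was small, with 1.36-fold over 6 libraries (log2 fold change 0.45 ± 0.11 SE; adjusted p = 0.241, limma voom) and 0.41 on the log2 scale in the fit of replicates 1 and 2 only. Between libraries of the same number, which are not taken as pairs, the differences were 0.47, 0.37 and 0.51 for replicates 1, 2 and 3. RHOBTB2 on the opposite strand shares 7.52% of the exon bases of TNFRSF10B. TNFRSF18 (ENSG00000186891, chromosome 1, 1138888 to 1141972) encodes GITR, a receptor best known from regulatory T cells, and had 14, 33 and 16 counts in GFP and 67, 39 and 25 in POU5F1B libraries. GFP replicate 2 lay above POU5F1B replicate 3, and the log2 fold change was 1.06 ± 0.47 (SE; adjusted p = 0.432, limma voom), with 1.30 in replicates 1 and 2 only.

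For the other 4 receptors the groups overlapped. The log2 fold change was 0.11 ± 0.18 for TNFRSF1A, the main receptor of TNF, 0.10 ± 0.12 for the TWEAK receptor TNFRSF12A, -0.20 ± 0.16 for the death receptor TNFRSF21 and 0.46 ± 0.33 for FAS, the receptor of FAS ligand (SE for each). FAS had 187, 166 and 232 counts in GFP and 328, 312 and 168 in POU5F1B libraries, so it again was higher in replicates 1 and 2 and lower in replicate 3. In the fit of replicates 1 and 2 only, the log2 fold change was 0.94 for FAS and -0.32 for TNFRSF21. The exons of FAS share 10.7% of their bases with ACTA2 on the opposite strand.

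All 4 NF-κB subunits had a log2 fold change above 0 over the 6 libraries, where 46.9% of all tested genes were higher. For NFKB1 and NFKB2 the groups did not overlap, where 10.2% of all tested genes were higher without overlap. These 4 genes are too few to say anything of the subunits as a group. NFKB2 (ENSG00000077150, chromosome 10, 104153867 to 104162281) encodes p100, the precursor of the p52 subunit of the non-canonical pathway. It had 40.8, 43.6 and 47.3 CPM in GFP and 78.5, 75.8 and 56.9 CPM in POU5F1B libraries. NFKB2 was 1.59-fold higher (log2 fold change 0.67 ± 0.17 SE), and its limma voom adjusted p of 0.236 was the smallest of the 30 genes. With replicates 1 and 2 only the value was 0.86. NFKB1 (ENSG00000109320, chromosome 4, 103422487 to 103538459) encodes p105, the precursor of p50 of the canonical pathway, and had 51.8, 54.7 and 57.5 CPM in GFP and 73.9, 78.3 and 62.5 CPM in POU5F1B libraries. The POU5F1B libraries were all above the GFP libraries, with a log2 fold change of 0.38 ± 0.13 (SE; adjusted p = 0.350, limma voom) and of 0.50 in replicates 1 and 2 only. RELA, the transactivating partner of p50, had 69.2 to 81.0 CPM in GFP and 80.5 to 92.0 CPM in POU5F1B libraries (log2 fold change 0.19 ± 0.12 SE). RELB, the partner of p52, had 16.4 to 27.0 and 23.8 to 30.8 CPM (log2 fold change 0.28 ± 0.23 SE), and both overlapped between the groups.

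Of the inhibitors, NFKBIA (ENSG00000100906, chromosome 14, 35870285 to 35873955) encodes IκBα, which is degraded on stimulation and made anew as a feedback brake. It had 21.4, 25.5 and 23.1 CPM in GFP and 47.6, 47.8 and 27.8 CPM in POU5F1B libraries. POU5F1B replicates 1 and 2 stood apart, and replicate 3 was just above the highest GFP library. NFKBIA was 1.70-fold higher (log2 fold change 0.77 ± 0.25 SE; adjusted p = 0.333, limma voom), and higher by 1.01 on the log2 scale with replicates 1 and 2 only. NFKBIE (ENSG00000146232, chromosome 6, 44225903 to 44233525) encodes IκBε, another cytoplasmic inhibitor, and had 9.50, 11.3 and 9.72 CPM in GFP and 17.6, 16.6 and 14.0 CPM in POU5F1B libraries. Its groups did not overlap. The difference between the libraries numbered 3 was 0.52 on the log2 scale, and that between those numbered 2 was 0.55, though the numbers are not taken to pair the libraries. Over 6 libraries the value for NFKBIE was 0.65 ± 0.19 (SE; adjusted p = 0.285, limma voom), and 0.70 with replicates 1 and 2 only.

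TNFAIP3 (ENSG00000118503, chromosome 6, 138188351 to 138204451) encodes A20, a ubiquitin-editing enzyme that ends NF-κB signalling. It had 3.45, 4.10 and 7.47 CPM in GFP and 9.73, 8.51 and 7.31 CPM in POU5F1B libraries. The groups met in replicate 3, where POU5F1B was lower than GFP by 0.03 on the log2 scale, which is almost no difference. TNFAIP3 was 1.79-fold higher over 6 libraries (log2 fold change 0.84 ± 0.32 SE; adjusted p = 0.371, limma voom) and higher by 1.25 on the log2 scale in replicates 1 and 2 only.

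The remaining targets split. BIRC3 (ENSG00000023445, chromosome 11, 102188215 to 102210134) encodes cIAP2, a ubiquitin ligase that protects cells from TNF-induced death, and had 6.81, 11.3 and 43.1 CPM in GFP and 16.8, 26.3 and 5.40 CPM in POU5F1B libraries. Its highest and lowest values both fell in replicate 3, as for IL6ST. The log2 fold change was -0.16 ± 0.81 over 6 libraries (SE; adjusted p = 0.960, limma voom) but 1.21 with replicates 1 and 2 only. ICAM1, an adhesion molecule that leukocytes bind, had 58.3 to 105 CPM in GFP and 84.3 to 163 CPM in POU5F1B libraries (log2 fold change 0.60 ± 0.32 SE; adjusted p = 0.508, limma voom), but 25.4% of its exon bases are shared with ICAM4-AS1 and LIMASI on the opposite strand. TNFAIP2, a TNF-induced gene of endothelium and epithelium, had a log2 fold change of 0.06 ± 0.18 (SE).

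The promoters were read for kappa B sites, since many of these genes, though not all, are known NF-κB targets. RefSeq windows of 300 bases (250 before and 50 after a transcript start, GRCh38.p14) were matched for 34 of the 44 genes. The decamer searched is the common kappa B consensus, on both strands, and overlapping matches were merged into 1 stretch. It lay in a window of 15 of the 34 genes, or 44.1%, where 13.3% of all 27303 genes and 11.3% of all 35114 windows held it. A match describes letters and not binding. The windows of NFKB2, NFKBIA, TNFAIP3 and IL32 are printed to show where the decamer lies in 4 of the 12 genes above. Of the other 8, NFKB1 also held it, CSF2, IL6R and TNFSF15 had windows without it, and LIF, CXCL16, TNFRSF10B and NFKBIE had no window in the table. Each is given 5′ to 3′ on the strand of the gene, with matches in capitals: NFKB2 at chr10:102394328-102394627 (plus strand), NFKBIA at chr14:35404700-35404999 (minus strand), TNFAIP3 at chr6:137867009-137867308 (plus strand) and IL32 at chr16:3065153-3065452 (plus strand).
NFKB2: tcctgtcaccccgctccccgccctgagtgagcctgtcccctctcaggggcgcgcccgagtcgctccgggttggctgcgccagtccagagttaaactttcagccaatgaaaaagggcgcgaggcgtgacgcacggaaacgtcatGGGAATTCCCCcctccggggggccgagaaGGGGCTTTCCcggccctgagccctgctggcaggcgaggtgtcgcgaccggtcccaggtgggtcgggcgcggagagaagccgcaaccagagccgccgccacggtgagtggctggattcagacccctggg
NFKBIA: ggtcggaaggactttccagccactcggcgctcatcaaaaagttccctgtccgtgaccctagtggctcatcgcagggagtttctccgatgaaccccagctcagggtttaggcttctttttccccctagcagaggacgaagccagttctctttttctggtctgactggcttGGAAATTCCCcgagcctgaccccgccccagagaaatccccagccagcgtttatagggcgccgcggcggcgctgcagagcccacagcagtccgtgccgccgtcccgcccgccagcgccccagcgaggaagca
TNFAIP3: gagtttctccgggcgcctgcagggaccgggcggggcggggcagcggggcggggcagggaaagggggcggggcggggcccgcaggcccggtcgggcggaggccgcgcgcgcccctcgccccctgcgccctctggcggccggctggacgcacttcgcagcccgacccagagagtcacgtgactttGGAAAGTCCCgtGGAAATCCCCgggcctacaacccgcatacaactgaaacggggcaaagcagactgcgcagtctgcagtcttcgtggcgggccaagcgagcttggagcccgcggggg
IL32: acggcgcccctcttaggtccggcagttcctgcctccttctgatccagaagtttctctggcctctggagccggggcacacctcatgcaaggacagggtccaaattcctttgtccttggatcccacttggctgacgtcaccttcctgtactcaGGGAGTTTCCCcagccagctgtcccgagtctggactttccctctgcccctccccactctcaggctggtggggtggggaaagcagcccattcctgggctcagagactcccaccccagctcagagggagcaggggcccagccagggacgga

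In the NFKB2 window the matches begin 107 and 78 bases before the start, in TNFAIP3 67 and 55 bases, in NFKBIA 81 bases and in IL32 99 bases before it. NFKB2 holds further matches in another window. The NFKB1 window at chr4:102501109-102501408 holds GGGAATTTCC on its plus strand, 49 bases before the start. Of the 22 tested genes with a window, 8 held it, BIRC3, FAS and IL6ST among them. It was also found in chemokines with few reads, where CXCL1, CXCL2, CXCL3 and CXCL5 share the same 11 bases, GGGAATTTCCC, beginning 79, 78, 79 and 91 bases before their starts, and in CCL20, CXCL10 and IL6. The AP-1 site TGANTCA, searched on both strands, lay in windows of 6 of the 34 genes (CXCL8, FAS, IL11, IL1A, IL6R and TNFSF15), with 9.37% of all genes and 7.71% of all windows holding it.

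Levels can be compared between genes only per length. In CPM per kilobase of the canonical transcript (the longest principal one for FAS), averaged over both groups, the TWEAK receptor TNFRSF12A was the highest at 148, followed by CXCR4 at 52.0, ICAM1 at 36.8, RELA at 32.5, TNFRSF10B at 30.3 and CXCL16 at 29.3. The ranges over libraries of CXCR4, ICAM1, RELA, TNFRSF10B and CXCL16 overlapped, so their order is not fixed by these data. TNFSF15 was the lowest tested gene at 0.301, and TNF stood at 1.03 in GFP and 2.71 in POU5F1B cells. This order depends on the group, since CXCL16 stood at 16.1 in GFP and 42.5 in POU5F1B cells. Of the other ligands, IL32 (15.01 in GFP and 32.3 in POU5F1B cells), LIF (15.3 and 25.1) and CSF2 (10.4 and 24.6) were the highest, and their ranges over libraries overlapped, so they cannot be put in order.

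**Figure D4:**
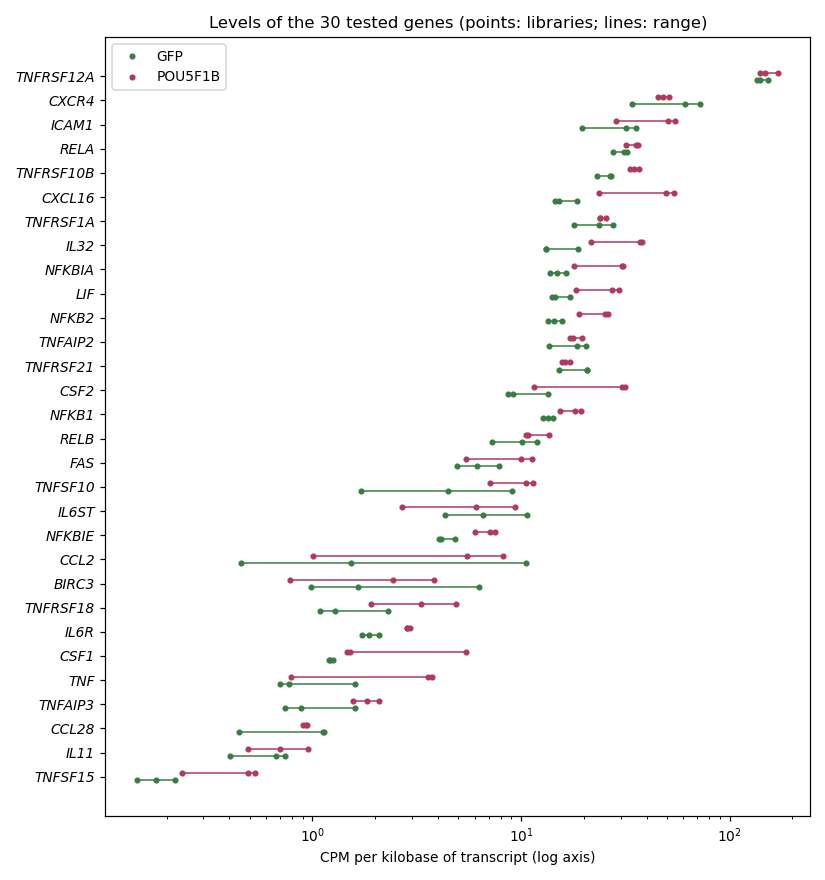
Level of the 30 tested genes in CPM per kilobase of transcript (horizontal axis, log scale), with 3 GFP (green) and 3 POU5F1B (red) libraries as points and their range as a line, ordered by the mean of both groups. TNFRSF12A is at the top with 148 and TNFSF15 at the bottom with 0.301.

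Other genes of the pathway were counted from 6 lists chosen by function, with earlier results of these data known. Their counts describe the lists and do not test them. Of all tested genes 46.9% were higher, and their median log2 fold change was -0.02. TRAF1 is counted both in the list of IKK, TNF and interleukin 1 signalling and in that of further NF-κB targets. In each list, 0 genes passed the threshold with limma voom, where edgeR passed 0 genes over all lists and DESeq2 passed 1 (NLRP1). Among 29 tested genes of IKK, TNF and interleukin 1 signalling, which carry the signal to NF-κB, 13 were higher and 16 lower, with a median log2 fold change of -0.02, and 2 had an unadjusted p under 0.05, both higher, a share near the 6.07% of all tested genes. These were TRAF2, an adaptor of TNF receptors (0.65 ± 0.13 SE; adjusted p = 0.207, limma voom), and IRAK2, a kinase of interleukin 1 signalling (0.70 ± 0.27 SE; adjusted p = 0.374, limma voom). TRAF2 had 36.6, 33.4 and 35.8 CPM in GFP and 61.6, 52.3 and 52.7 CPM in POU5F1B libraries, with similar values in all 3 POU5F1B libraries. Of 10 further NF-κB subunits and inhibitors, 6 were higher (median 0.03), and TNIP1, which binds A20, had the single unadjusted p under 0.05, 1 of 10 genes, which says nothing of the list (0.52 ± 0.20 SE; adjusted p = 0.380, limma voom).

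For the counts of higher genes in the next lists, the share over all tested genes was 46.9%. Receptors and decoys for the ligands were measured in part, with 14 of 31 tested. Of these 10 were higher (median 0.48), and 2 of the 14 had an unadjusted p under 0.05, where 6.07% of all tested genes were higher at that p. These were receptors for TRAIL, the death receptor TNFRSF10A (0.65 ± 0.19 SE) and the decoy TNFRSF10D (0.66 ± 0.25 SE), with limma voom adjusted p-values of 0.290 and 0.373. TNFRSF11B, osteoprotegerin, a decoy that also binds TRAIL, had a value of opposite sign over 6 libraries (-0.58 ± 0.85 SE), with groups that overlapped; it is named after its values were seen. JAK and STAT genes of the interleukin 6 family showed 6 of 10 higher (median 0.05) and none with an unadjusted p under 0.05 by limma voom. Of 9 tested genes of cytokine processing 7 were higher (median 0.20). The inflammasome sensors NLRP1 (1.12 ± 0.20 SE) and NLRP3 (1.93 ± 0.61 SE) were higher at an unadjusted p under 0.05, with limma voom adjusted p-values of 0.185 and 0.317. At that p 1 further gene of this list was lower, where 6.07% of all tested genes were higher and 5.82% lower. The groups overlapped for NLRP3, with 10, 7 and 27 counts in GFP and 70, 54 and 27 in POU5F1B libraries. CASP1, which cleaves IL1B and IL18, was listed at 0 in all libraries. Of 11 tested further NF-κB targets 10 were higher (median 0.46), and 2 of the 11 had an unadjusted p under 0.05, as did 6.07% of all tested genes in this direction. They were SDC4, a cell surface proteoglycan (0.88 ± 0.20 SE), and IER3, an early response gene (0.58 ± 0.17 SE), with limma voom adjusted p-values of 0.220 and 0.296.

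**Figure D5:**
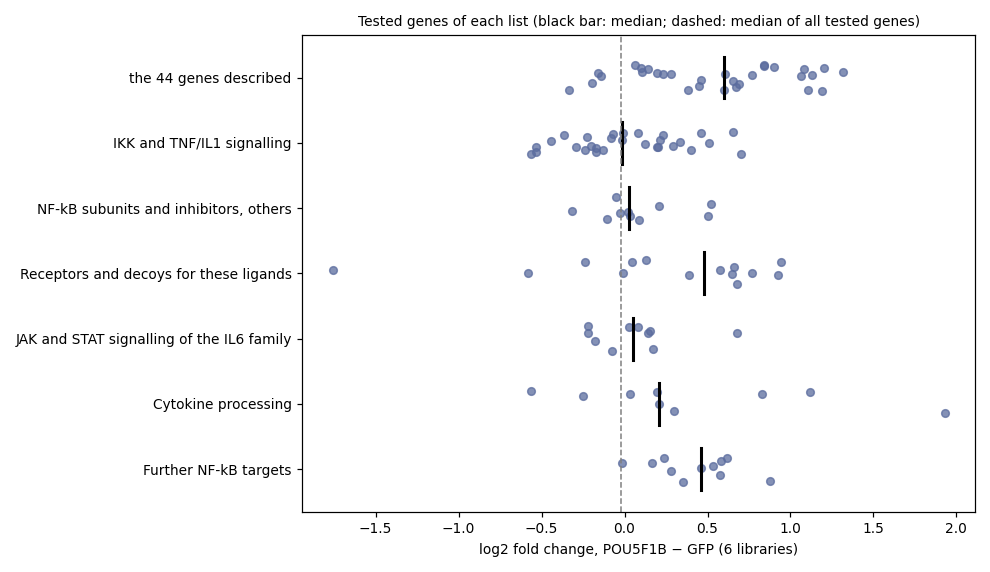
Log2 fold change between POU5F1B and GFP over 6 libraries (horizontal axis) of each tested gene in the 44 genes described and in 6 further lists; black bars are list medians, and the dashed line is the median of all tested genes (-0.02). The medians are 0.60 for the genes described, 0.48 for receptors and decoys and 0.46 for further NF-κB targets, and -0.02 for IKK, TNF and interleukin 1 signalling.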

How the data were processed

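RNA of 3 GFP and 3 POU5F1B samples of SW480 cells was measured by stranded polyA RNA-seq, and groups and replicate numbers were taken from the sample titles. The authors deposited whole-number read counts per gene and library, without normalization. To make them, the authors aligned reads to hg19 (GRCh37) with HISAT2 and counted uniquely mapped reads with featureCounts on genes and transposable elements together. How strand was set in the counting, and which annotation release was used, is not given in the sources used here. Unique mapping loses reads of repeated sequence and can shift reads between close paralogs.

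Identifiers were matched to symbols for 87.4% of rows, and each of the 44 genes was matched. With filterByExpr (edgeR 4.0.16) 14286 genes were kept, and library sizes were scaled by TMM. The 44 genes were tested within the fit of all 14286 by limma voom (limma 3.58.1, R 4.3.3), two-sided and without a block, with Benjamini-Hochberg adjustment. A gene passed at an adjusted p under 0.05 and a fold change above 2. Of the 30 tested genes, 29 reached the filter level (10 counts at the median library size, 0.825 CPM) in every library, and 0 passed the filter through a single group. Folds against genes at 0 counts were not computed. The tests were tried on simulated counts.

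The genes, gene lists, naming rule and the setting of replicates 1 and 2 only were chosen with earlier results of these data known. Described in full were tested genes without overlap between the groups, with an unadjusted p under 0.05, or with a log2 fold change over 1 in size in all 6 libraries or in replicates 1 and 2, and IL33. Of other lists, genes with an unadjusted p under 0.05 are named, at most 3 per direction; 1 such gene is not reported here. Any other gene with its own values was named after they were seen. Alternatives were edgeR, DESeq2 1.42.0, sample quality weights, 3 other scalings, 2 other filters, the replicate number as a block, replicates 1 and 2 only, and each library left out in turn. Gene coordinates are 1-based on GRCh37, from GENCODE models lifted to it.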

Additional observations from a re-analysis of the deposited data

How the results depend on the processing

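The median log2 fold change of the 30 tested genes lay between 0.47 and 0.67 in every alternative. Of the 44 genes, 0 passed the threshold with edgeR, any of the 3 scalings, either filter or the replicate block. With DESeq2 2 of them passed, with sample quality weights 7 (TNFRSF18, IL32, CXCL16, CCL2, CSF2, TNF and TNFAIP3) and with replicates 1 and 2 only 9. Leaving out each library in turn gave 0 to 2, the 2 without GFP replicate 3 being IL32 and TNFAIP3. Of the other pathway genes, 1 passed with DESeq2, 5 with quality weights, 5 with replicates 1 and 2 only, and 0 to 2 with a library left out. Of all genes, 232 passed with DESeq2, 1077 with quality weights, 1194 with replicates 1 and 2 only, 4 with no filter, and 0 to 595 with a library left out, with 595 without GFP replicate 3 and 5 without POU5F1B replicate 3. Among the 44 genes, an unadjusted p under 0.05 was found for 20 with quality weights (18 higher, 2 lower; 19.9% of all genes higher and 20.2% lower), for 22 with replicates 1 and 2 only (20 higher, 2 lower; 19.5% of all genes higher and 20.7% lower) and for 7 to 15 with a library left out, the 7 without POU5F1B replicate 2. The cause of these shifts was not tested.

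With the replicate block, 0 of the 44 genes and 1 of all genes (POU5F1B, 10.83) passed, and 12 of the 44 had an unadjusted p under 0.05. Deviations from the group means correlated at 0.24, 0.088 and 0.16 for libraries numbered 1, 2 and 3, and GFP replicate 2 correlated best with POU5F1B replicate 1, so the numbers are not taken to pair the libraries. No other call past the threshold changed under the block.

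Some values changed sign. With quality weights these were IL6ST (0.10), CCL28 (-0.26), TNFRSF1A (-0.039), TNFAIP2 (-0.066) and BIRC3 (0.74), and with replicates 1 and 2 only IL6ST (0.46), CCL28 (-0.29), TNFRSF1A (-0.098), TNFAIP2 (-0.082) and BIRC3 (1.21). With a library left out, the ranges that crossed 0 were those of IL6ST (-0.72 to 0.17), IL11 (-0.032 to 0.49), CXCR4 (-0.47 to 0.070), CCL2 (-0.13 to 1.97), CCL28 (-0.30 to 0.40), TNFRSF1A (-0.065 to 0.24), TNFAIP2 (-0.12 to 0.20) and BIRC3 (-0.70 to 0.56). Counted over named genes and settings, 602 values kept direction and side of the threshold, 31 passed it and 20 changed sign. At this depth, a gene with 0 counts in a library, such as IL33, was not detectable there, and up to 3 counts remain possible.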
